A study of Homo sapiens with 3 samples.

Results

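*MET*, *AXL*, *IGF1R*, *INSR* and *IRS2* encode 4 receptor tyrosine kinases and 1 adaptor of insulin-type signalling, and the occupancy of a PRCC-TFE3 fusion protein around these 5 genes was examined by chromatin immunoprecipitation sequencing (ChIP-seq). The genes were chosen by name, with earlier results of these data known. A peak was taken as a member if it overlapped a gene or the 10 kb on either side of it in genome build hg19. That build is given in the submitters' processing notes. The 5 windows covered 798 kb and held 87 of 117702 regions found in the whole series, where a region is a merged set of overlapping peaks of the replicates. Of these 87 regions, 43 were found in both replicates and are called shared.

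All samples were HK-2 cells, a human cell line derived from kidney proximal tubule, with a doxycycline-inducible HA-PRCC-TFE3 gene. Every culture had received doxycycline at 0.2 µg/mL for 24 h, the cells that gave the control library included. The samples were 2 ChIP replicates, precipitated through the HA tag, and 1 library of input DNA, which is unprecipitated chromatin. PRCC-TFE3 was therefore an induced, tagged protein in these cells. No uninduced cells or mock precipitation were analysed here, and peak lists hold no expression, so neither the cell type nor a response of these genes could be checked.

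The deposited lists came from a library of 12235754 tags in replicate 1, 7418533 tags in replicate 2 and 21698159 tags in input DNA, as estimated from the lists. A tag is a sequenced read. Replicate 1 had 109205 and replicate 2 had 81300 peaks in narrowPeak form, the main lists here. Fold enrichment below is the value that the authors' peak caller gave at the summit, the highest point of a peak. Each library gives a single value, so the spread shown is that between 2 replicates of the same group, which the study describes as biological.

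TFE3 is a basic helix-loop-helix factor of the MiT/TFE family, which binds E-box sequences such as CACGTG and the related CATGTG, and it occurs fused to PRCC in a subset of renal cell carcinoma. MET is the receptor for hepatocyte growth factor, and AXL is a receptor of the TAM family that binds GAS6. Both act in growth, survival and migration of epithelial cells. The insulin receptor INSR and the insulin-like growth factor receptor IGF1R are close relatives, and they pass their signal through adaptor proteins such as IRS2 to the PI3K-AKT and MAPK pathways.

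The sequences upstream of the starts of *MET*, *AXL* and *IGF1R* are shown because these promoters carried peaks in both replicates, and that of *IRS2* because it holds an E-box variant. They are RefSeq sequences in GRCh38.p14, written 5′ to 3′ on the strand of the gene, and comprise the 250 bases before the start. The positions are chr7:116671946-116672195 (+ strand), chr19:41218973-41219222 (+), chr15:98648289-98648538 (+) and chr13:109786584-109786833 (− strand). Capitals mark a match to CACGTG or to CATGTG and its reverse complement CACATG.
MET: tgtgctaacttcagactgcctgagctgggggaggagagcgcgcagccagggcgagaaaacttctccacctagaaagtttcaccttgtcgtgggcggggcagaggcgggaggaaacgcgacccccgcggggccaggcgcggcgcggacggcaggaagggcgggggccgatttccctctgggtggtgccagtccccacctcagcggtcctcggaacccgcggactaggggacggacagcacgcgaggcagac
AXL: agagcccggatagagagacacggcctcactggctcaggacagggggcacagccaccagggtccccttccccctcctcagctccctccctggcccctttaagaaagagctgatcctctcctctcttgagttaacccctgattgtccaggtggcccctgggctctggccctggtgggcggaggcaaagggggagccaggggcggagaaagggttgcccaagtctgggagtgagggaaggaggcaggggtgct
IGF1R: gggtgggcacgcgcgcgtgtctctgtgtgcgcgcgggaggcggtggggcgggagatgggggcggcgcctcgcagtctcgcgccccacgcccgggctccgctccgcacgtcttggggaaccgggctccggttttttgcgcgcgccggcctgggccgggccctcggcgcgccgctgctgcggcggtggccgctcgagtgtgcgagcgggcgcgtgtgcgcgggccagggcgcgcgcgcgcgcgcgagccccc
IRS2: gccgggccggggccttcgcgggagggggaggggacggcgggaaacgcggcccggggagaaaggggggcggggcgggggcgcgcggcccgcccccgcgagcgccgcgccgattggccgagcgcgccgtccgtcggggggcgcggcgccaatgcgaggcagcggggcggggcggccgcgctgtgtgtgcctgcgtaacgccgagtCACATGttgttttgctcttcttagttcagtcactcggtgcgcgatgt

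The match in *MET* lies across the first bases of the transcript, so a stretch of 30 bases from position −9 to position 21 relative to the start is given. RefSeq lists 2 *AXL* starts, 7532 bp apart, and a stretch of 30 bases from position −91 to −62 relative to the second one holds a CACATG. Capitals mark the matches.
MET start: gaggcagacagaCACGTGctggggcgggca
AXL second start: acagatactcaaCACATGcacgtacacacc

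Of 4 motifs searched on both strands in the 300 bases from 250 before to 50 after each start, CACGTG was present at *MET* only, at position 4 of the transcript. It was present in 7.26% of all 35116 promoters. CATGTG was present at *IRS2*, as CACATG from position −47, and at the second *AXL* start, compared with 11.1% of all promoters. The 5 genes had 6 such windows, because both *AXL* starts were searched. The longer E-box TCACGTGA and the AP-1 motif TGACTCA were present at none of the 5 genes, compared with 0.980% and 4.95% of all promoters. The TCACGTGA search overlaps that for CACGTG by construction. *IGF1R* and *INSR* had none of these letters in this window. The windows were rich in G and C, from 66.0% at the first *AXL* start to 79.7% at *IGF1R*, compared with a median of 58.7% over all promoters. Only the second *AXL* start was lower, at 53.7%.

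The gene models differ between the builds, and no position was converted. The current RefSeq models were longer than the hg19 genes by 200 bp for *MET*, 993 bp for *IGF1R*, 404 bp for *INSR* and 1158 bp for *IRS2*, and shorter by 20 bp for *AXL*. A distance from the hg19 start therefore cannot be read as a position in the sequences above.

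To see where PRCC-TFE3 lay at these genes, the peaks of each window were counted. *MET* and *AXL* had the most peaks for their size and *IRS2* had the fewest. Densities of whole chromosomes were taken from the first to the last peak, gaps in the assembly included. In the *MET* window there were 30 peaks in replicate 1 and 17 in replicate 2, or 20.6 and 11.6 peaks per 100 kb. The whole of chromosome 7 had 3.65 and 2.68 peaks per 100 kb. For *AXL* these densities were 14.4 and 12.8, from 9 and 8 peaks, and chromosome 19 as a whole had 7.02 and 5.89.

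The insulin-type genes had lower densities. *IGF1R*, the longest gene, had 25 and 19 peaks, or 7.46 and 5.67 per 100 kb, compared with 3.58 and 2.67 on chromosome 15. *INSR* had 12 and 7 peaks, or 5.95 and 3.47 per 100 kb. It was the only window of the 5 that lay below its chromosome in both replicates, whereas *AXL*, on the same chromosome 19, lay above it in both. *IRS2* had 3 peaks in replicate 1 and 1 in replicate 2, or 5.69 and 1.90 per 100 kb, compared with 2.04 and 1.44 on chromosome 13.

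In order of their mean density, *MET* and *AXL* could not be told apart, because the replicates of *MET* lay on both sides of those of *AXL*. Both were above *IGF1R* in each replicate. The ranges of *IGF1R* and *INSR* over both replicates overlapped, as did those of *INSR* and *IRS2*. Within each replicate, however, *IGF1R* was above *INSR* and *INSR* was above *IRS2*. The last difference was small in replicate 1, at 5.95 against 5.69, and *IRS2* had only 3 peaks there. Over all 5 windows there were 9.90 and 6.52 peaks per 100 kb, compared with 3.70 and 2.76 over chromosomes 1 to 22 and X. These are descriptions, and the difference from the rest of the genome was not tested.

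**Figure D1:**
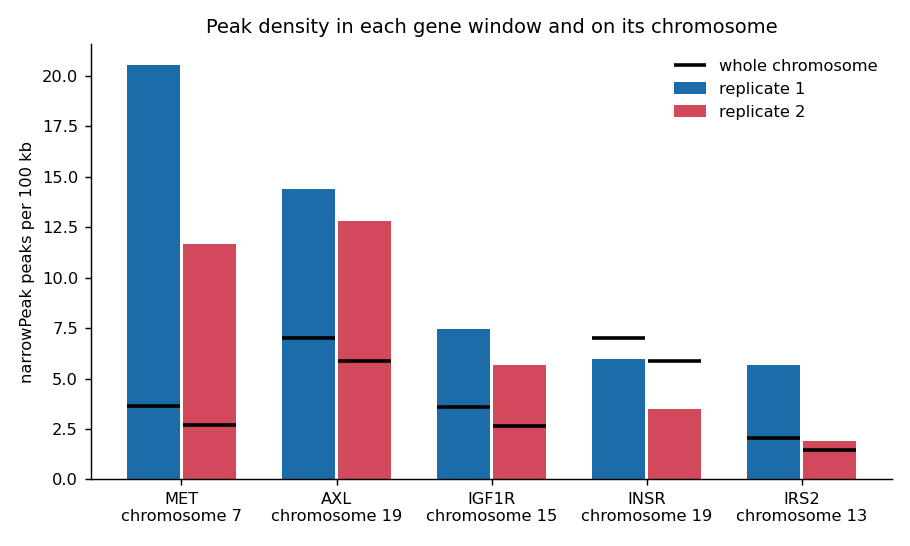
Number of narrowPeak peaks per 100 kb (vertical axis) in the window of each gene, as bars for replicate 1 and replicate 2, with black lines for the whole chromosome in the same replicate. The bars of *MET* reach 20.6 and 11.6, against lines at 3.65 and 2.68, whereas the bars of *INSR* lie under their lines.

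Of the 79 member peaks of replicate 1, 44 overlapped a peak of replicate 2 (55.7%; 95% Wilson interval, 44.7% to 66.1%), where the share over all replicate 1 peaks was 65.3%. In the other direction, 43 of 52 peaks did so (82.7%; 70.3% to 90.6%), compared with 88.5% of all replicate 2 peaks. Both background shares lay within the intervals. The shared regions were 43 of 87 (49.4%; 39.2% to 59.7%), compared with 59.8% of all regions, just above the upper limit. None of these shares was tested. Neighbouring peaks in a gene are not independent, so these intervals cover counting error only.

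The 44 regions found in 1 replicate were weaker. The 35 regions of replicate 1 alone had a median fold enrichment of 5.27, with a maximum of 10.7 in *IGF1R*. The 9 regions of replicate 2 alone had a median of 5.13 and a maximum of 8.57 in *INSR*. By gene, 16 of 30 regions were shared at *MET*, 7 of 10 at *AXL*, 13 of 31 at *IGF1R*, 6 of 13 at *INSR* and 1 of 3 at *IRS2*. Replicate 2 had the smaller library, so a region absent from its list cannot be taken as unoccupied.

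Most shared regions lay away from the promoters, taken as 1 kb on either side of a single hg19 start per gene. Of the 43, 33 had their centre in the gene body, 4 upstream and 6 downstream, and 40 (93.0%) did not overlap these promoters. The second *AXL* start was not counted as a promoter. Which of the 33 lie in exons, introns or untranslated regions was not analysed here, since no hg19 annotation was used. Because the gene bodies made up 698 of the 798 kb, they had 4.73 shared regions per 100 kb, compared with 8 in the upstream flanks and 12 in the downstream flanks.

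**Figure D2:**
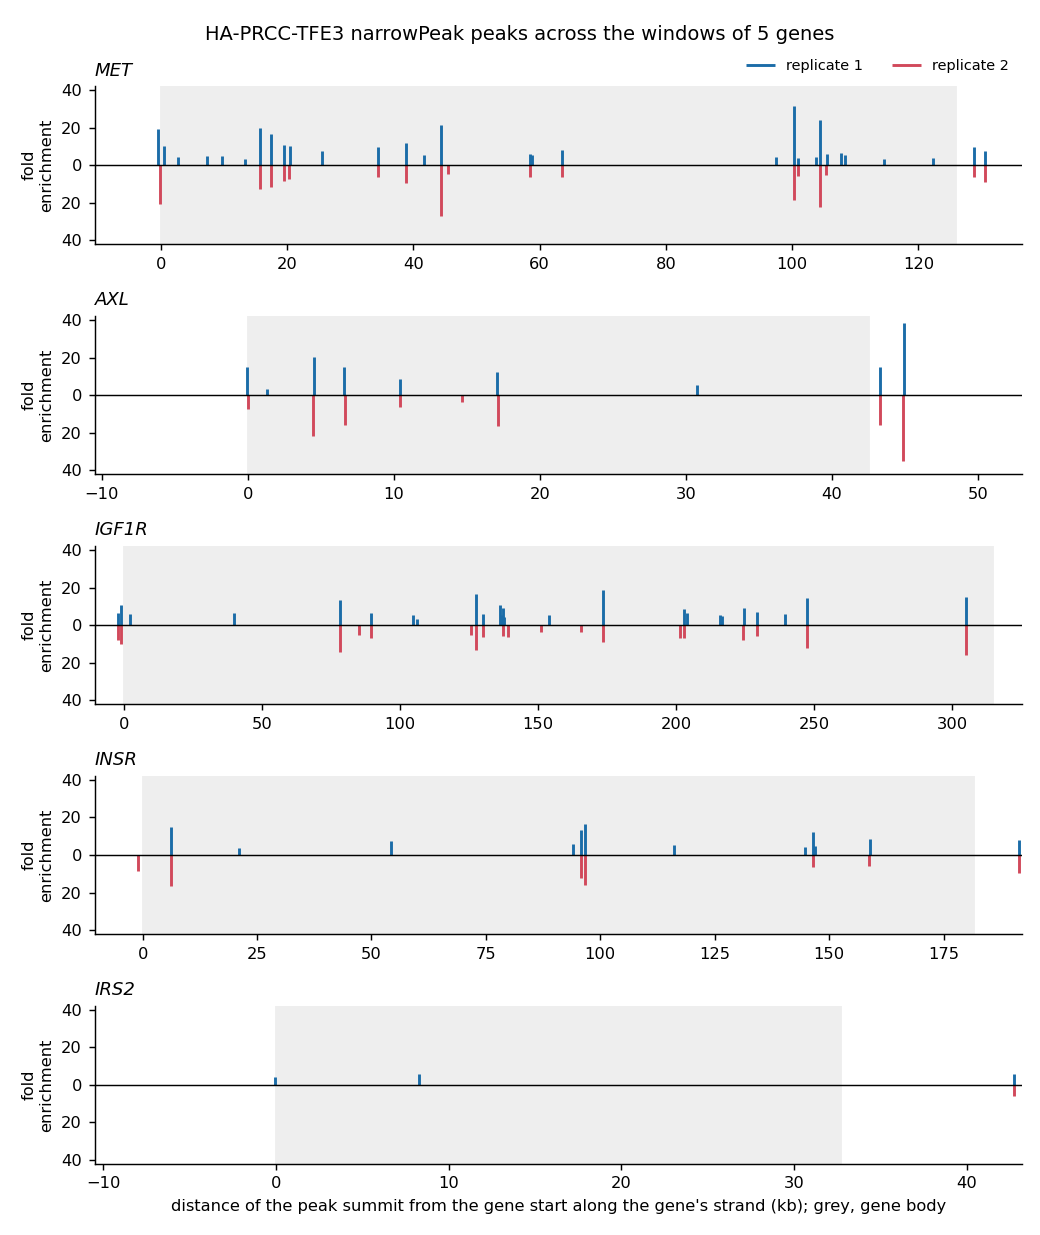
Each line is 1 narrowPeak peak, placed by the distance of its summit from the gene start along the strand of the gene (kb), with its fold enrichment drawn upward for replicate 1 and downward for replicate 2, and the gene body in grey. Paired lines mark the 16 shared regions of *MET* and the 7 of *AXL*, and the tallest pair stands past the end of *AXL* at 38.5 and 35.3.

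The promoters were examined next, as 1 kb on either side of the hg19 start. Positions at the hg19 starts count the start itself as 0, whereas those of the motifs above count the first transcribed base as 1. A shared region was present at 3 of 5 promoters, those of *MET*, *AXL* and *IGF1R*, whereas those of *INSR* and *IRS2* each had a peak in 1 replicate. For scale, 5.21% of the bases of chromosomes 1 to 22 and X lay within 1 kb of a shared region. The share over all promoters of this build was not analysed here. The 5.21% is a share of bases, so it does not show what promoters in general would give.

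The *MET* promoter had the strongest of these regions, on chromosome 7 from 116311837 to 116313077, which is from position −622 to position 618 relative to the start. Its fold enrichment was 19.1 in replicate 1 and 20.5 in replicate 2. Replicate 1 had 2 peaks there and replicate 2 had a single peak of 1204 bp. In the lists of fixed-width peaks that the authors deposited in BED form, both replicates had 2 peaks, centred in replicate 1 at positions −203 and 461. The first held 38 and 34 tags and the second held 20 and 12 tags, so the upstream peak was the higher one in both replicates.

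The *AXL* promoter region, on chromosome 19 from 41724736 to 41725310, covered the start itself. The summits were at position −49 in replicate 1 and position 18 in replicate 2, and the fold enrichments were 14.8 and 7.52. At the matched BED peak there were 28 and 14 tags, or 22.9 and 18.9 tags per 10000000 tags of each library. The difference in fold was thus larger than that in scaled tags.

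At *IGF1R* the region lay on chromosome 15 from 99191582 to 99191927, at the outer edge of the promoter window. Its summits were at positions −1040 and −962, with fold enrichments of 10.7 and 10.3. A second, weaker region stood about 2 kb before the start, with values of 6.42 and 7.82. With a promoter of 0.5 kb on either side of the hg19 start, *IGF1R* had none and the number of genes fell from 3 to 2. The current RefSeq model of *IGF1R* is 993 bp longer than the hg19 gene, and its start was not placed in hg19. The region at the edge of the window may therefore lie closer to the RefSeq start.

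The peaks at the promoters of *INSR* and *IRS2* were not shared. *INSR* had a peak in replicate 2 on chromosome 19 from 7294860 to 7295092, with its summit at position −950, a fold enrichment of 8.57 and 13 BED tags. Neither list of replicate 1 had a peak there, although it was the deeper library. *IRS2* had a peak in replicate 1 on chromosome 13 from 110438865 to 110439272, which covered the start, at a fold enrichment of 4.28. By fold this *IRS2* peak was at percentile 7.12 of the replicate 1 list, with tied folds given their mean rank. The BED lists had no peak there in either replicate.

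Within *MET*, the receptor for hepatocyte growth factor, the highest shared regions by the lower of both values lay at the promoter, in the 3′ part of the gene and at 1 site between them. The region from 116416641 to 116417265, 104 kb after the start, had fold enrichments of 24.1 and 22.5. The region from 116412376 to 116413009, 100 kb after the start, had values of 31.6 and 18.6. The region from 116356659 to 116357177, 44.4 kb after the start, was higher in replicate 2, at 27.0 against 21.4. By the lower of both values, these 3 regions and the promoter were at percentiles 93.2 to 96.8 of the shared regions of the series.

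A further group of *MET* sites stood from 15.7 to 20.4 kb after the start. Its 4 shared regions had fold enrichments of 19.8, 16.6, 10.6 and 10.3 in replicate 1. In replicate 2 they were 12.8, 11.6, 8.42 and 7.52, so all of them were lower in that replicate. The weakest shared region of the gene, 101 kb after the start, had values of 3.74 and 5.78. The 13 regions of replicate 1 alone reached at most 7.49.

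Around *AXL*, the GAS6 receptor, the strongest region of all 5 windows lay outside the gene, on chromosome 19 from 41769018 to 41770470. Its summits were 2392 bp and 2328 bp past the end of *AXL*, and the fold enrichments were 38.5 and 35.3, at percentile 99.9 of the shared regions of the series. It held 76 and 59 tags and no input tag. A second region, 718 bp and 735 bp past the end, had values of 15.0 and 16.0. The next protein-coding gene on that side in RefSeq is *HNRNPUL1*, which encodes a nuclear ribonucleoprotein, and its hg19 start was not located here. These regions are near *AXL* by position alone.

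Inside *AXL*, the highest region was from 41729349 to 41729865, 4.51 kb after the start in replicate 1 and 4.45 kb in replicate 2, with fold enrichments of 20.1 and 21.7. It was followed by a wide region from 41731520 to 41732706, with values of 15.0 and 16.0. This wide region ran from 6412 to 7598 bp after the hg19 start. In GRCh38 the second *AXL* start is 7532 bp after the first, so the region may cover it. That second start was not placed in hg19. Next came a region 17.1 kb after the start, with 12.5 and 16.4, and one 10.4 kb after it, with 8.74 and 6.52. Between 20 kb after the start and the end of the gene no shared region was found, only a peak of replicate 1 at 30.8 kb with a fold enrichment of 5.28.

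In *IGF1R*, the receptor for insulin-like growth factors, no region reached a fold of 20. Ranked by the lower of both values, the highest shared region was near the 3′ end, on chromosome 15 from 99497650 to 99498053, 305 kb after the start, with 15.0 in replicate 1 and 16.0 in replicate 2. Next came the region from 99319957 to 99320613, at 16.6 and 13.5. The region from 99270856 to 99271212 was the third by this measure, at 13.4 and 14.1. Among the 13 shared regions of this gene, the one 174 kb after the start differed most between the replicates, with 18.7 and 8.98, and it was the highest of them in replicate 1. After the promoter the first shared region was 78.3 kb into the gene.

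In *INSR*, the insulin receptor, 3 of the 6 shared regions had a fold enrichment above 10 in both replicates. The highest by the lower of both values, from 7197175 to 7197537 on chromosome 19, was 96.6 kb after the start and had values of 16.4 and 15.7. A neighbour less than 1 kb away, from 7198040 to 7198429, had 13.3 and 12.0. The other stood 6.13 kb after the start in replicate 1 and 6.12 kb in replicate 2, from 7287618 to 7288110, with 15.1 and 16.3. It was the shared region nearest to the *INSR* start, and none was found in the 10 kb before the start. All 3 lay in the gene body, in which *INSR* also had 2 weaker shared regions, and the other one lay 9773 bp and 9749 bp past the end.

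*IRS2*, which encodes an adaptor of both receptors, had the fewest peaks. Its single shared region spanned 110396066 to 110396326 of chromosome 13, where the fold enrichment was 5.88 in replicate 1 and 5.78 in replicate 2, with BED counts of 9 and 7 tags. That region straddled the border of the window. The summit of replicate 1 was 9997 bp past the end of the gene, whereas that of replicate 2, at 10036 bp, was just outside. No shared region overlapped the gene body or the 10 kb before the start. The other peak of the gene, 8.30 kb after the start with a fold of 5.88, was found in replicate 1 only.

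The strength of the member peaks was then set against the whole lists. Their median fold enrichment was 6.95 in replicate 1 and 7.76 in replicate 2, compared with 7.49 and 7.32 over all peaks. A total of 8 of 79 and 6 of 52 member peaks were in the top 10% of their list, or 10.1% and 11.5%. The windows thus had more peaks per 100 kb than the genome, with a strength that was close to the middle of the lists. The *AXL* window was the exception among the 5, with medians of 14.8 and 16.0, followed by *INSR* with 7.83 and 9.40, *MET* with 6.95 and 8.42, *IGF1R* with 6.42 and 7.06 and *IRS2* with 5.88 and 5.78. The medians of the *AXL* window include the peaks past the end of the gene. Their folds were 15.0 and 38.5 in replicate 1, and 16.0 and 35.3 in replicate 2.

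Across the 43 shared regions, fold enrichment was higher in replicate 1 in 27 and higher in replicate 2 in 16. Spearman's rho between the replicates was 0.85 over these regions, and it was 0.78 over all 70426 shared regions. Both are descriptions, since both lists used 1 input library and regions of a gene are not independent. The summits of both replicates were at a median distance of 37 bp, with a maximum of 199 bp at the *MET* promoter, compared with a median of 31 bp over all shared regions.

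**Figure D3:**
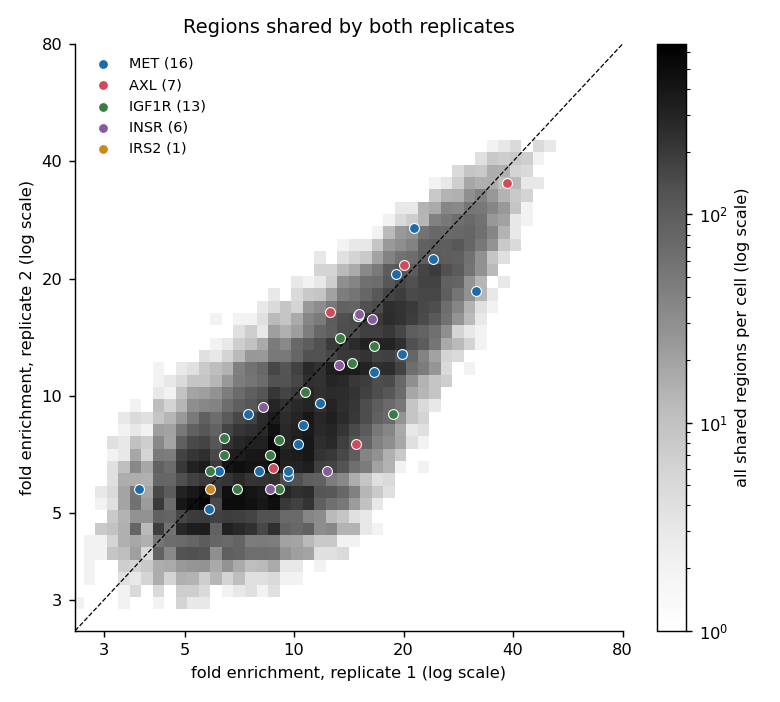
Fold enrichment in replicate 1 (horizontal, log scale) and replicate 2 (vertical, log scale) for the 43 shared regions, coloured by gene with their number in the legend, over all 70426 shared regions in grey and the line of equal values. The *AXL* downstream region lies at 38.5 and 35.3, and the *IRS2* region lies among the weak ones at 5.88 and 5.78.

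Input DNA served as the background. None of the 286 input peaks overlapped a window. BED peaks carry tag counts, and the windows held 57 such peaks with 1281 tags in replicate 1 and 45 with 789 tags in replicate 2. The same positions held 52 and 33 input tags. Input tags were 0 at 43.9% and 51.1% of the member peaks, close to the 46.1% and 46.9% of the whole lists.

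Scaled to the libraries, tags at *MET* peaks exceeded input 32.6 times in replicate 1 (95% exact interval, 21.6 to 51.4) and 49.9 times in replicate 2 (30.2 to 88.5). The ratios were 37.2 (22.6 to 65.9) and 81.5 (38.8 to 205) for *IGF1R*. For *INSR* they were 48.1 (22.9 to 121) and 43.9 (21.6 to 104). *AXL* had the highest ratios, 105 (44.3 to 325) and 284 (77.5 to 2359), but these rest on 5 and 2 input tags, so the intervals are wide. They also include the peaks past the end of *AXL*, which had no input tags. Those peaks held 31 and 76 of the 295 tags in replicate 1, and 25 and 59 of the 194 in replicate 2. At *IRS2* no input tag was present beside its 19 and 7 ChIP tags, so only the lower limits of the same intervals can be given, 8.27 and 4.22. The whole lists had ratios of 43.8 and 54.2, within the intervals of *MET*, *IGF1R* and *INSR* in both replicates. Peaks were called for high tag numbers in the same libraries, so these ratios describe the called sites and do not test them.

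Finally, tags were compared between the replicates at 42 member BED peaks that were found in both. An exact binomial test of the split of tags was run on all 55655 matched peaks of the series. It compares 2 libraries and not conditions. Only peaks called in both replicates enter it, so sites called in a single replicate are left out beforehand. A lack of passing peaks therefore cannot show that the replicates are equal. None of the 42 passed at an adjusted p below 0.05, and none had an unadjusted p below 0.05. Over all matched peaks these shares were 0.0% and 2.2%. Replicate 1 contributed 1093 tags at the member peaks and replicate 2 contributed 757 (40.9%; 95% Wilson interval, 38.7% to 43.2%), compared with 39.8% over all matched peaks.

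Individual peaks were less precise. The share of replicate 2 ranged from 27.1% to 51.9%, and the peak farthest from the overall split was that in *IGF1R* 174 kb after its start, with 35 and 13 tags (27.1%; 16.6% to 41.0%; exact binomial p = 0.0775, Benjamini-Hochberg adjusted p = 1). At the *AXL* downstream peak, the tags per 10000000 were 62.1 and 79.5. At the *MET* peak 44.4 kb after the start they were 36.0 and 55.3, and at the one 100 kb after it 49.9 and 37.7. None of these differences passed the test.

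**Figure D4:**
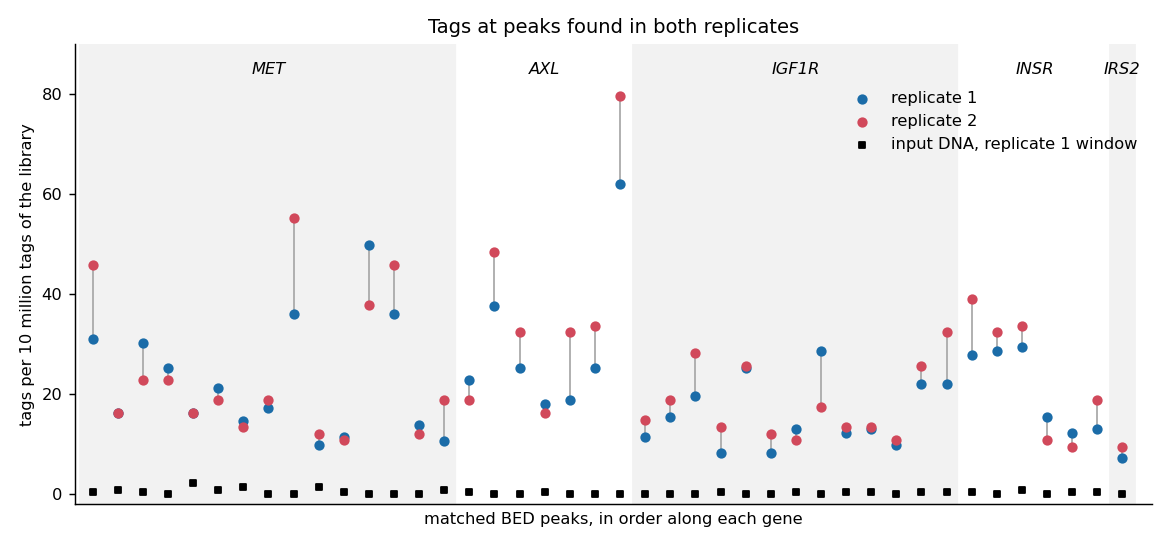
Tags per 10000000 tags of the library (vertical) at the 42 BED peaks found in both replicates, in order along each gene, with squares for input DNA in the replicate 1 windows. ChIP values run from 7.36 to 79.5, whereas input stays at or below 2.30.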

How the data were processed

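ChIP-seq peak lists of 2 HA-PRCC-TFE3 replicates and 1 input DNA library were used, grouped by their labels. The deposited narrowPeak lists hold, for each peak, a fold ratio, −log10 p and q values and a score. The deposited BED lists, which follow the column order of HOMER although it is not named, hold a count of tags, a signal per 10000000 tags, a scaled input signal, a fold ratio, p-values, a score and a focus fraction. Their header is displaced, so columns were read by position. The authors called peaks per sample, with MACS in Strand NGS against input per the methods; the aligner is not given in the sources used here. The labels name HA-PRCC-TFE3 and the ChIP methods HA-TFE3, and the labels were followed. On 16 chromosomes peaks ended beyond the hg38 sequence, so coordinates are hg19, as in the submitters' notes.

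Gene coordinates were those of the membership rule. Peaks overlapping by 1 bp were merged. Library totals were the sum of tags over the sum of scaled signal, and input tags were recovered as whole numbers from tags and fold (100% of values within 2%), with 0 tags standing as 0.5 tag in that fold. BED peaks were matched between replicates by overlap, nearest centres first. Two-sided exact binomial tests were run with Benjamini-Hochberg adjustment over all 55655 (scipy 1.17.1, Python 3.11.15). The procedure was tried beforehand on simulated tags, with changes planted only at peaks of at least 50 tags over both replicates. Of the 42 member peaks, 14 had that many, so the simulation does not cover the others. Intervals cover counting error only. The text names all 5 genes, each promoter region and the 3 strongest shared regions per gene, and other regions named were chosen after their values were seen. The genes and lists were chosen with earlier results of these data known. The wider list of pathway genes needs an hg19 annotation and is not analysed here.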

Additional observations from a re-analysis of the deposited data

How the results depend on the processing

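Of 63 alternative values, 48 stayed within their limit, which was 1.5 times for counts, the Wilson interval for shares and the spread between replicates for other values, and none changed direction. The number of regions fell from 87 to 42 with p at or below 1e-10 and was 52 to 79 with either replicate left out, 52 being without replicate 1. The number of shared regions ranged from 29 to 54. The share of replicate 1 peaks found again was 73.7% with the BED lists, 67.7% with q below 1e-05, 75.0% with p at or below 1e-10 and 81.1% with equal numbers of peaks, against 55.7%. For replicate 2 the BED lists gave 93.3% and the p threshold 90.6%, against 82.7%. Stricter thresholds and equal numbers drop the weakest peaks by construction. Peak density at *AXL* was 12.0 per 100 kb with q below 1e-05 and 15.3 in the gene body alone, against 13.6, and at *IGF1R* it was 5.22 with the BED lists, against 6.57. The median percentile of member peaks by fold, 49.4, was 44.6 to 54.3 with either replicate left out. In the 100 bases around the start, a shorter window, motif shares were 2.82% for CACGTG, 3.93% for CATGTG, 0.467% for TCACGTGA and 1.64% for TGACTCA. The number of promoters with a shared region was 2 at 0.5 kb and 3 otherwise. No paired analysis was possible because only the ChIP libraries are numbered, and they belong to 1 group. The smaller library of replicate 2 limits what its absent peaks show.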

Other observations

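Peaks of 1 kb or wider were counted at these genes. In replicate 1 there was 1 of 79, the *AXL* downstream peak of 1453 bp. In replicate 2 there were 2 of 52, the peaks of 1204 bp at the *MET* promoter and 1177 bp in *AXL*. Over the whole lists, 0.878% and 0.590% of peaks were that wide. Of 38 pairs of neighbouring shared regions within a gene, 15 had centres within 5 kb. The median gap was 6895 bp and the smallest was 738 bp. Beyond the windows, a flank of 20 kb in place of 10 kb added 11 shared regions, of which 4 were at *INSR*, 3 each at *MET* and *AXL*, 1 at *IGF1R* and none at *IRS2*. These widths and distances are given as values and were not tested.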
